A study of Mus musculus with 7 samples.

Results

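The 39 genes described here encode scaffolds, kinases, GTPase regulators, AMPA receptor auxiliary subunits and adhesion proteins of the postsynaptic density, and were taken by name from a table of 25467 genes. All 39 were found, and all 39 passed the low-count filter that left 17211 genes for testing. The table holds RNA sequencing counts from brain libraries labelled medial prefrontal cortex (mPFC) of 7 mice. In 4 of them the labels give the treatment as rhTSP1, recombinant human thrombospondin-1 (TSP1 below), and in 3 as PBS, phosphate-buffered saline. No source used here gives the strain, sex, age, dose, route or time, and none names an allele or agent that both groups share. Each library was taken as 1 mouse, since the series describes 7 different animals, and nothing is said of shared litters. Library totals lay between 15090336 and 20755167 counts, and the 39 genes took 1.63% to 2.06% of them. Cortical projection neuron markers (11 of 11 tested) had a median of 76.7 CPM (counts per 1000000 counts after TMM scaling). TSP1 replicate 4 stood apart from the other libraries, with the highest level of all 12 striatal and all 10 oligodendrocyte markers.

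The postsynaptic density is the protein layer beneath the membrane of excitatory synapses, where MAGUK scaffolds hold glutamate receptors, Dlgap linkers tie the MAGUKs to Shank proteins, and Shank and Homer proteins connect to the spine cytoskeleton and to metabotropic receptors. Calcium entering through NMDA receptors activates CaMKII there, and Rac, Arf and Rap GTPases set the shape of the spine. Thrombospondins are matrix glycoproteins released by astrocytes that promote the formation of excitatory synapses, and the comparison of TSP1 with PBS asks how the transcripts of the mPFC differ after TSP1.

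No member passed the test of TSP1 against PBS once all genes tested were allowed for. By edgeR's quasi-likelihood test 0 of 39 members had a false discovery rate (FDR) under 0.05, as did 0% of all 17211 genes, and the smallest member FDR was 0.358 (Lrfn2). DESeq2, edgeR's exact test and limma-voom also called 0 of 39 members, and called 88, 104 and 0 of all genes. At an unadjusted p under 0.05 there were 5 members (12.8%), against 9.65% of all genes tested, so the share was near the background. Of these, Tnik was higher with TSP1, and Cacng2, Git1, Ppp1r9b and Lrfn2 were lower, against a background of 4.21% higher and 5.44% lower over all genes. The groups did not overlap at 3 members (7.69%), against 10.1% of all genes. Tnik and Camk2b lay higher in every TSP1 library (background 4.83%) and Lrfn2 lay lower in every one (background 5.26%). Fitted log2 fold changes, given throughout as TSP1 over PBS, were above 0 for 17 members and below 0 for 22, where 51.1% of all genes were above 0. They ran between -0.28 and 0.20 with a median of -0.048, where the median over all genes was 0.0040. The 95% intervals of 37 members lay within 0.5 log2 units of no change in either direction, which is 1.41-fold. The widest reach was that of Shank1, down to -0.62. An unadjusted p does not allow for the number of genes tested, so none of these 5 is called. In whole tissue, fewer cells of a type and less RNA per cell cannot be told apart.

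**Figure D1:**
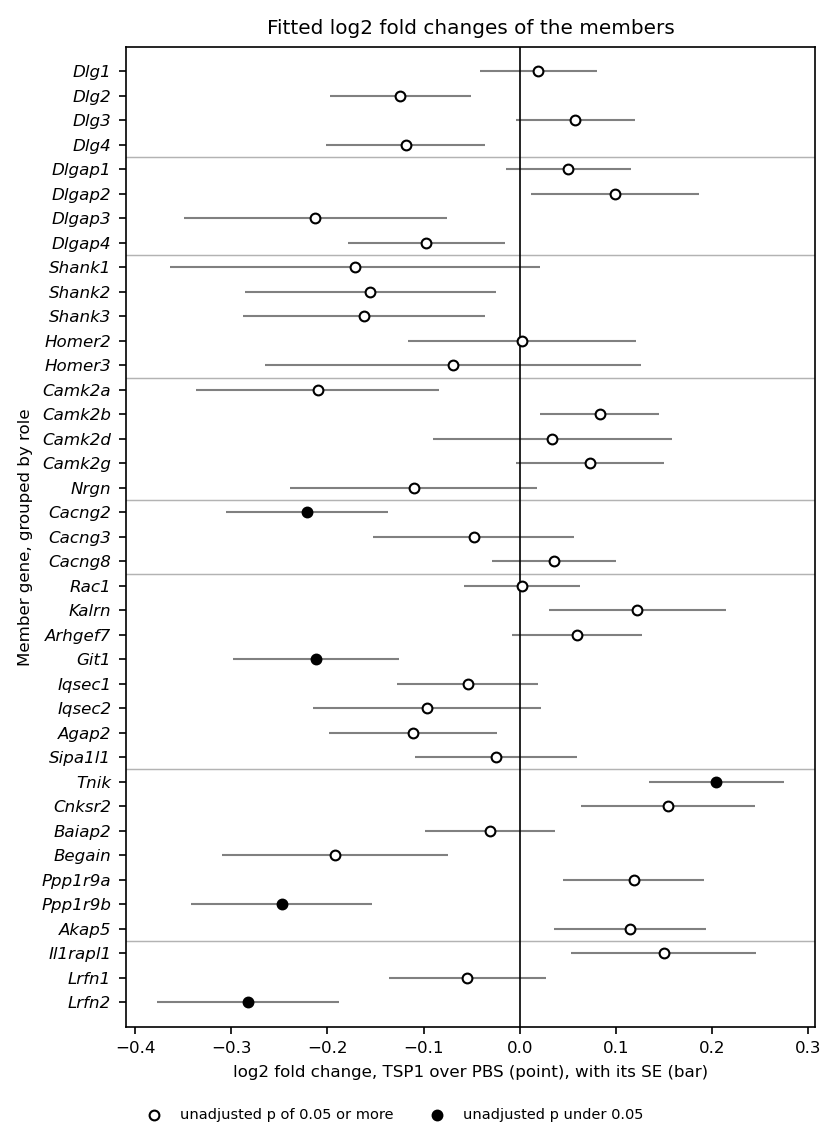
Fitted log2 fold changes of the 39 members, TSP1 over PBS (x axis), grouped by role with the first role at the top, with bars of 1 SE. Filled points are the 5 members with an unadjusted p under 0.05, of which Tnik lies above 0 and Cacng2, Git1, Ppp1r9b and Lrfn2 lie below it.

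Counts of members at an unadjusted p under 0.05 turned on single libraries. With TSP1 replicate 2 left out there were 8 members (20.5%, against 10.6% of all genes in that fit), and with TSP1 replicate 3 left out there were 3 (7.69%, against 8.64%). Leaving out PBS replicate 1 gave 9 (23.1%, against 8.57% of all genes), and leaving out PBS replicate 3 gave 1 (2.56%, against 6.71%). Tnik kept an unadjusted p under 0.05 in all 7 fits that left out 1 library, Lrfn2 in 6 (lost without PBS replicate 3) and Ppp1r9b in 5 (lost without PBS replicate 2 or 3). Cacng2 and Git1 kept it in 3 each, and lost it without TSP1 replicate 3 or 4 or PBS replicate 2 or 3.

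Tnik, the kinase gene that was the member with the highest fold change, encodes a Ste20-type kinase of the postsynaptic density that acts downstream of Rap GTPases. It lies on chromosome 3 from 28263214 to 28675858 (GRCm38). Its levels were 330, 278, 278 and 296 CPM in the TSP1 libraries, against 254, 259 and 256 CPM in the PBS libraries. Every TSP1 library lay above every PBS library, with TSP1 replicate 1 well above the others. Its log2 fold change was 0.20 (SE 0.070, edgeR adjusted p = 0.371), a ratio of 1.15. After a correction that removed from every library its trends with exon length and with GC content, it was 0.11, with an unadjusted p of 0.0812.

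Lrfn2, an adhesion gene whose protein binds MAGUK scaffolds (chromosome 17, 48932379 to 49097588), had 19.9, 24.7, 19.8 and 20.81 CPM with TSP1, against 24.9, 24.9 and 28.1 CPM with PBS. The groups did not overlap, but TSP1 replicate 2 came within 1 CPM of the lowest PBS library. The log2 fold change was -0.28 (SE 0.095, edgeR adjusted p = 0.358), and it was -0.24 after the length and GC correction. The other adhesion genes gave -0.054 (SE 0.082) for Lrfn1, a relative of Lrfn2, and 0.15 (SE 0.096) for Il1rapl1, whose human counterpart is linked to intellectual disability. Il1rapl1 was among the least abundant members, at 21.2 ± 1.00 CPM with TSP1 (SD, n = 4) and 19.1 ± 2.48 CPM with PBS (SD, n = 3).

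Ppp1r9b encodes spinophilin, which brings protein phosphatase 1 to spine actin (chromosome 11, 94991035 to 95006899). It had 1257, 1485, 1302 and 1081 CPM with TSP1, against 1432, 1554 and 1578 CPM with PBS. TSP1 replicate 2 lay inside the PBS range, and the other TSP1 libraries lay below it. The log2 fold change was -0.25 (SE 0.094, edgeR adjusted p = 0.428), and it was -0.17 without TSP1 replicate 4. Its relative Ppp1r9a, which encodes neurabin, had a log2 fold change on the other side of 0, at 0.12 (SE 0.073), and the difference between the pair was not tested.

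Git1, an Arf GTPase-activating scaffold that recruits the Rac exchange factor encoded by Arhgef7 (chromosome 11, 77493562 to 77507786), had 456, 487, 436 and 386 CPM with TSP1, against 455, 541 and 538 CPM with PBS. TSP1 replicates 1 and 2 lay above PBS replicate 1, so the groups overlapped. The log2 fold change was -0.21 (SE 0.086, edgeR adjusted p = 0.459) for Git1 and 0.059 (SE 0.068) for Arhgef7.

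Cacng2 encodes stargazin, the founding member of the transmembrane AMPA receptor regulatory proteins (TARPs), which carry AMPA receptors to MAGUK scaffolds. The gene lies on chromosome 15 from 77991748 to 78120028 and had 76.0, 76.9, 68.2 and 67.01 CPM with TSP1, against 72.3, 90.4 and 89.4 CPM with PBS. PBS replicate 1 lay among the TSP1 libraries. Its log2 fold change was -0.22 (SE 0.085, edgeR adjusted p = 0.433). Of the other TARPs, Cacng8 had 72.9, 77.7, 68.9 and 72.7 CPM with TSP1, against 72.6, 67.6 and 73.6 CPM with PBS. These groups overlapped almost fully, with a log2 fold change of 0.036 (SE 0.065, 95% interval -0.10 to 0.17). Cacng3 had a log2 fold change of -0.048 (SE 0.10). Cacng8 held 37.2% ± 2.52 of the per-kilobase level of these 3 TARP genes with TSP1 and 35.2% ± 3.25 with PBS (SD, n = 4 and 3, exact permutation p = 0.371). The difference of 2.06 percentage points was 0.568 without PBS replicate 2, 0.842 without TSP1 replicate 4 and 3.79 without PBS replicate 1. Cacng2 shares 323 of its 5510 exon bases with an antisense gene, and reads of that shared stretch cannot be told apart here.

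**Figure D2:**
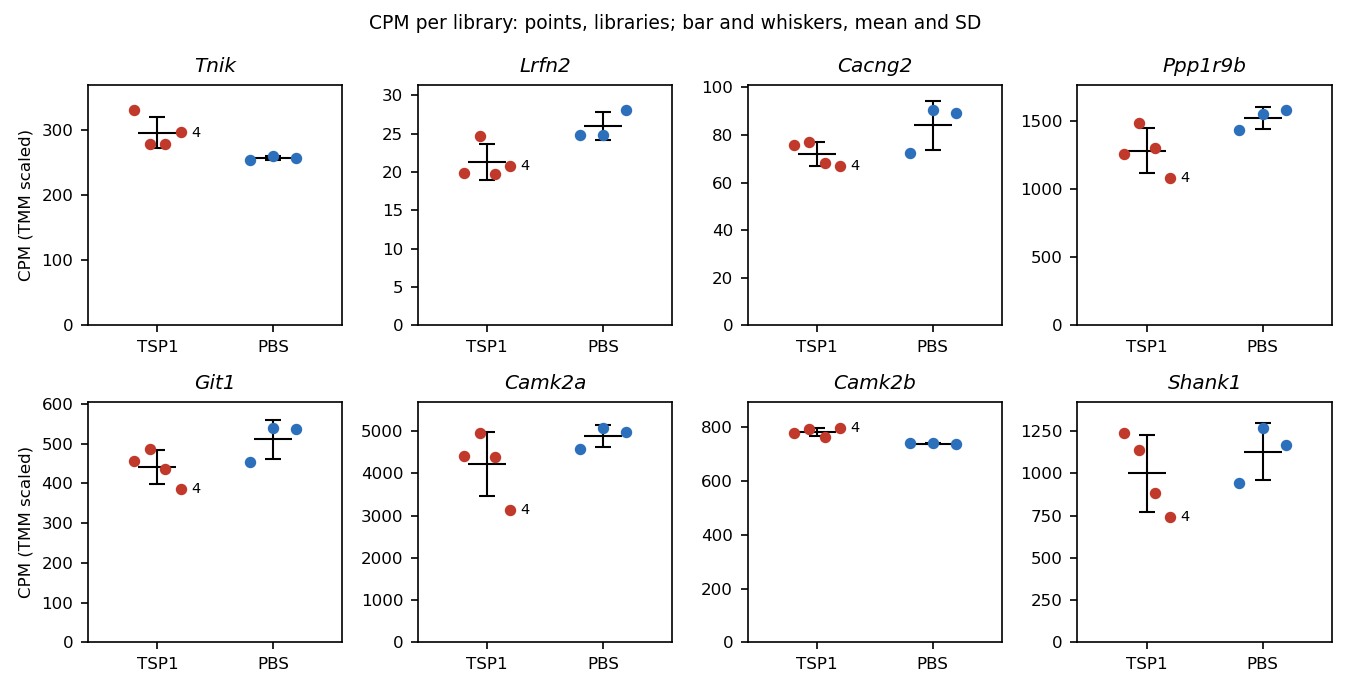
CPM with TMM scaling (y axes start at 0) of 8 members in each library, with the mean of each group as a line and its SD as whiskers and TSP1 replicate 4 marked with its number. Tnik and Camk2b lie higher in every TSP1 library than in any PBS library, Lrfn2 lies lower in every TSP1 library, and TSP1 replicate 4 is the lowest library for Cacng2, Ppp1r9b, Git1, Camk2a and Shank1.

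CaMKII, the calcium and calmodulin-dependent kinase, is built from subunits of 4 genes, of which the alpha subunit is typical of forebrain excitatory neurons and its mRNA is carried into dendrites. Camk2a (chromosome 18, 60925618 to 60988152) was at 4415, 4947, 4391 and 3147 CPM with TSP1, against 4583, 5088 and 4993 CPM with PBS. TSP1 replicate 4 stood far below all others, and among the remaining libraries the groups overlapped. Camk2a had a log2 fold change of -0.21 (SE 0.13, edgeR adjusted p = 0.645), which was -0.089 without TSP1 replicate 4. Camk2b, the gene of the actin-binding beta subunit, had 776, 790, 762 and 797 CPM with TSP1, against 739, 739 and 735 CPM with PBS. Its groups did not overlap, and it had the smallest spread within groups of all members (SD 0.023 on the log2 CPM scale), but the log2 fold change of 0.083 (SE 0.062) did not pass (edgeR adjusted p = 0.712). The more widely expressed gamma and delta subunits come from Camk2g, with a log2 fold change of 0.073 (SE 0.077), and Camk2d, with 0.034 (SE 0.12).

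In CPM per kilobase of exon, Camk2a made up 82.0%, 83.5%, 82.6% and 76.7% of the 4 CaMKII genes with TSP1, against 83.9%, 84.5% and 84.7% with PBS. Every TSP1 library lay below every PBS library, by a mean of 3.14 percentage points, although the test did not pass (exact permutation test over 35 splits, two-sided, p = 0.0571, and 0.343 adjusted over the 6 shares compared). Without TSP1 replicate 4 the mean difference was -1.64 percentage points. Camk2b made up 12.6% with TSP1 and 10.4% with PBS on average. The 35 splits cannot give a p below 0.0286.

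Neurogranin, the product of Nrgn (chromosome 9, 37544492 to 37552904), binds calmodulin and releases it to CaMKII when calcium rises. Nrgn had 1055, 1111, 979 and 906 CPM with TSP1, against 854, 1312 and 1114 CPM with PBS. The PBS libraries held both the lowest and the highest value. Its log2 fold change was -0.11 (SE 0.13, edgeR adjusted p = 0.834), and it was -0.26 without PBS replicate 1 and 0.047 without PBS replicate 2.

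Among the MAGUK scaffolds, Dlg4, the gene of the main MAGUK of the postsynaptic density (chromosome 11, 70016942 to 70047522), had 818, 904, 837 and 709 CPM with TSP1, against 834, 935 and 892 CPM with PBS. The groups overlapped, and TSP1 replicate 4 was again the lowest. The log2 fold change of Dlg4 was -0.12 (SE 0.083), and it was -0.053 without TSP1 replicate 4. Dlg2 had 538, 528, 518 and 465 CPM with TSP1, against 513, 572 and 590 CPM with PBS. Its groups overlapped through PBS replicate 1. Dlg2 had a log2 fold change of -0.12 (SE 0.074), which was -0.077 without TSP1 replicate 4. Dlg1, which traffics glutamate receptors, stood at 0.019 (SE 0.061) and its X-linked relative Dlg3 at 0.058 (SE 0.062). After the length and GC correction Dlg2 stood at -0.21 (unadjusted p = 0.00762, edgeR adjusted p = 0.392) and Dlg4 at -0.19 (unadjusted p = 0.0377). Dlg4 entered that correction with 13251 exon bases, the union over 22 annotated transcripts, and with the 46.8% GC of its longest transcript. The transcripts expressed here may differ from these, which was not tested. Dlg4 held 43.3% ± 1.63 of the per-kilobase level of the 4 Dlg genes with TSP1 and 45.04% ± 0.942 with PBS (SD, n = 4 and 3, exact permutation p = 0.171).

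Dlgap1 to Dlgap4 encode the linkers between MAGUKs and Shank proteins. Dlgap1 (chromosome 17, 69969073 to 70821413) had 609, 604, 602 and 546 CPM with TSP1, against 559, 573 and 578 CPM with PBS. In 3 TSP1 libraries Dlgap1 exceeded all PBS libraries, while TSP1 replicate 4 lay below them. Its log2 fold change was 0.051 (SE 0.065), which was 0.090 without TSP1 replicate 4. The length and GC correction brought it to -0.020. Dlgap3, whose mRNA is found in dendrites, had 415, 500.1, 418 and 327 CPM with TSP1, against 410.4, 514 and 518 CPM with PBS. Its groups overlapped, with TSP1 replicate 4 far below the rest. Its log2 fold change was -0.21 (SE 0.14), and it was -0.11 without TSP1 replicate 4. Dlgap2 had a log2 fold change of 0.099 (SE 0.087) and Dlgap4 one of -0.097 (SE 0.082), which was -0.040 without TSP1 replicate 4. Dlgap1 took 18.4% ± 1.41 of the per-kilobase level of its family with TSP1 and 16.4% ± 1.32 with PBS (SD, n = 4 and 3, exact permutation p = 0.143).

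The Shank genes encode the master scaffolds of the deeper layer and had closely similar log2 fold changes. Shank3 (chromosome 15, 89499623 to 89560261), whose human counterpart is disrupted in forms of autism, had 328, 368, 302 and 260 CPM with TSP1, against 293, 383 and 380 CPM with PBS. TSP1 replicate 4 was the lowest and PBS replicate 1 the next lowest. The log2 fold changes were -0.16 (SE 0.13) for Shank3, -0.17 (SE 0.19) for Shank1 and -0.16 (SE 0.13) for Shank2. Shank1 varied more within groups than every other member except Homer3, with 743 to 1242 CPM with TSP1 and 943 to 1272 CPM with PBS. Shank3 held 21.7% ± 1.74 of the per-kilobase level of the 3 Shank genes with TSP1 and 21.4% ± 0.431 with PBS (SD, n = 4 and 3, exact permutation p = 0.886). Homer proteins join Shank to group I metabotropic receptors, and the log2 fold change was 0.0024 (SE 0.12) for Homer2 and -0.070 (SE 0.20) for Homer3. Homer3 was scarce, at 6.13 ± 1.51 CPM with TSP1 and 6.47 ± 0.901 CPM with PBS (SD, n = 4 and 3), and shares 874 exon bases with Ddx49 on the opposite strand. It held 16.1% ± 4.11 of the per-kilobase level of the pair with TSP1 and 17.0% ± 3.30 with PBS (SD, n = 4 and 3, exact permutation p = 0.771).

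Rac1, the GTPase that drives actin branching in spines (chromosome 5, 143503634 to 143528036), had 233, 245, 245 and 257 CPM with TSP1, against 241, 247 and 247 CPM with PBS. The groups overlapped, with a log2 fold change of 0.0022 (SE 0.060, 95% interval -0.13 to 0.13) whose sign turned under 4 of the alternatives run. Rac1 shares 2309 exon bases with Daglb on the opposite strand. Kalrn, the Rac exchange factor of spines, had 831, 723, 715 and 663 CPM with TSP1, against 584, 733 and 703 CPM with PBS. TSP1 replicate 1 was its highest and PBS replicate 1 its lowest library, and its log2 fold change of 0.12 (SE 0.092) was 0.029 without PBS replicate 1. Of the Arf and Rap regulators, the Arf GTPase-activating gene Agap2 had a log2 fold change of -0.11 (SE 0.088), which was -0.041 without TSP1 replicate 4. Iqsec1, which encodes an Arf exchange factor, had -0.054 (SE 0.073), and -0.0079 without PBS replicate 2. Its relative Iqsec2 had -0.097 (SE 0.12), and -0.0022 without TSP1 replicate 4. The Rap GTPase-activating gene Sipa1l1 had -0.025 (SE 0.084), and 0.019 without TSP1 replicate 4.

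The remaining scaffold and anchor genes lay on both sides of 0. Cnksr2, a scaffold of Ras signalling, had a log2 fold change of 0.15 (SE 0.090), which was 0.23 without TSP1 replicate 4, with an unadjusted p under 0.05, and 0.080 without PBS replicate 1. With the length and GC correction Cnksr2 stood at 0.097 (unadjusted p = 0.325). Akap5, which anchors protein kinase A and calcineurin, had 0.11 (SE 0.079), and 0.011 without PBS replicate 1. Begain, whose protein binds MAGUKs, and Baiap2, which links Rac to actin, had -0.19 (SE 0.12) and -0.031 (SE 0.067). Begain had 131 CPM in TSP1 replicate 4, where the other TSP1 libraries had 173 to 192 CPM and the PBS libraries 172 to 206 CPM. Without that library its log2 fold change was -0.086.

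**Figure D3:**
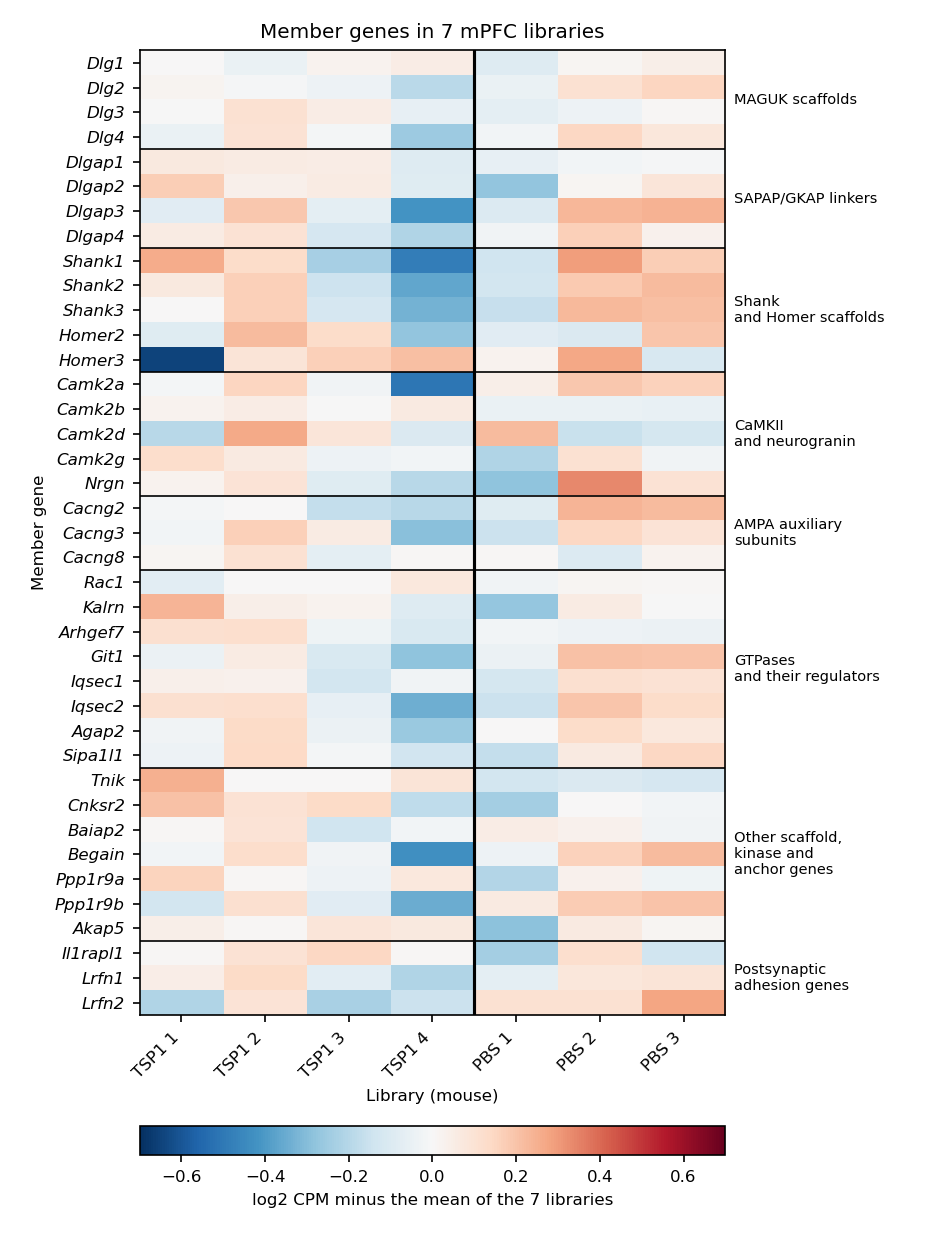
Level of each member (rows, grouped by role) in each library (columns), as log2 CPM minus the mean of the 7 libraries, blue for lower and red for higher. TSP1 replicate 4 is the lowest library for 19 members and PBS replicate 1 for 12, and Homer3 in TSP1 replicate 1, at -0.65, is the lowest cell.

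Levels differed far more between members than between groups. Per kilobase of exon, the scale on which genes were compared, Nrgn and Camk2a led with 721 ± 105 and 604 ± 88.9 CPM per kilobase (SD over the 7 libraries). Ppp1r9b and Agap2 followed at 272 ± 35.3 and 258 ± 23.2, and then Shank1, Dlgap3 and Git1 at 100.4 ± 19.0, 98.0 ± 15.6 and 97.4 ± 11.5. The means of Nrgn and Camk2a differed by more than 1 SD of either gene, while those of Ppp1r9b and Agap2, and those of Shank1, Dlgap3 and Git1, differed by less than that. The lowest were Camk2d at 4.38 ± 0.588, Il1rapl1 at 2.17 ± 0.207 and Homer3 at 1.82 ± 0.349. The median member had 32.5 CPM per kilobase, against 4.22 over all genes tested. Exon length was the union over annotated transcripts, which lowers this value for genes with many isoforms such as Kalrn.

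Member levels differed between libraries of 1 group. Averaged over the 39 genes and set against the mean of the 7 libraries, log2 CPM was 0.011, 0.093, -0.027 and -0.15 in TSP1 replicates 1 to 4, against -0.088, 0.093 and 0.072 in PBS replicates 1 to 3. TSP1 replicate 4 was lowest and PBS replicate 1 next, so the groups overlapped. The summed striatal markers reached 1082 CPM in TSP1 replicate 4, against 561 to 638 CPM in the other TSP1 libraries and 560 to 616 CPM in the PBS libraries. The summed oligodendrocyte markers reached 8442 CPM there, against 3083 to 4312 CPM in the other TSP1 libraries and 4620 to 5819 CPM in the PBS libraries. Neuron markers had a mean of 0.059 log2 units in TSP1 replicate 4, their highest, and lay between -0.086 and 0.059 over all libraries. Their sum gave another order, with 9127 CPM in TSP1 replicate 4. It was 9366 to 9489 CPM in the other TSP1 libraries and 8686 to 9267 CPM in the PBS libraries. Without TSP1 replicate 4 the median log2 fold change of the members was -0.0022, with 19 above 0, and 4 members (Tnik, Cnksr2, Ppp1r9b and Lrfn2) had an unadjusted p under 0.05 (10.3%, against 9.74% of all genes). Shank1, Shank2 and Shank3 then stood at -0.048, -0.061 and -0.078.

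Microglia and astrocyte markers had, with 1 exception, log2 fold changes below 0. All 12 microglia markers did (7 at an unadjusted p under 0.05), as did 11 of 12 astrocyte markers (5 at an unadjusted p under 0.05), where the background of lower genes was 5.44%. The summed microglia markers lay between 453 and 574 CPM with TSP1 and between 579.6 and 671 CPM with PBS, and the groups did not overlap. The summed astrocyte markers lay between 5647 and 6953 CPM with TSP1 and between 6555 and 7593 CPM with PBS, and these sums, in which Slc1a2 weighs most, overlapped. On the mean log2 scale, where each marker counts alike, astrocyte markers lay between -0.26 and 0.043 with TSP1 and between 0.067 and 0.18 with PBS, and the groups did not overlap. All 8 endothelial markers also had log2 fold changes below 0 (median -0.16, 3 at an unadjusted p under 0.05). Their sums were 207 to 256.3 CPM with TSP1 and 256.0 to 297 CPM with PBS, which overlapped narrowly. On the mean log2 scale they lay between -0.30 and 0.029 with TSP1 and between 0.034 and 0.19 with PBS, narrowly without overlap. Neuron markers leaned the other way, with 9 of 13 above 0 (median 0.0575, 1 at an unadjusted p under 0.05). All 12 striatal markers were above 0 (median 0.45), as were 4 of 11 cortical projection neuron markers (median -0.0065) and 2 of 10 oligodendrocyte markers (median -0.0835). No marker of these lists was at 0 in any library. Their part in the values of the members was not tested.

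**Figure D4:**
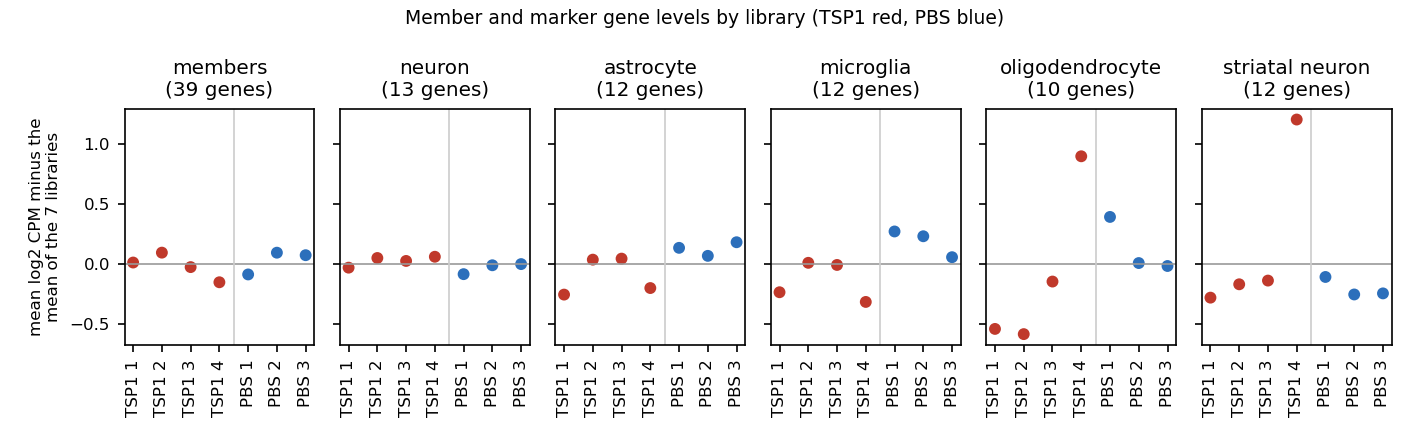
Mean log2 CPM of the members and of 5 marker lists in each library, minus the mean of the 7 libraries (TSP1 red and left, PBS blue and right). The members span -0.15 to 0.093, and TSP1 replicate 4 stands apart at 0.90 for oligodendrocyte and 1.20 for striatal markers.

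Members differed by the base composition of their transcripts, a property that played no part in their choice. Their longest transcripts had a median GC content of 53.3%, against 49.5% over all genes tested, and their exon length had a median of 7465 bases, against 4041. Of the 19 members above their median GC content, 16 had log2 fold changes below 0 (median -0.11), among them Lrfn2, Ppp1r9b, Git1, Dlgap3, Begain and the 3 Shank genes. Of the 20 at or below it, 14 had log2 fold changes above 0 (median 0.042), among them Tnik, Cnksr2, Il1rapl1 and Akap5. Across the 39 members log2 fold change and GC content had Pearson's r = -0.62 and Spearman's rho = -0.60, a description only, since these genes share libraries and depth. The same trend ran through the whole table at a smaller size, with medians of 0.035 in the lowest and -0.050 in the highest of 5 equal bins of GC content, and r = -0.11 and rho = -0.17 over 17164 genes. Log2 fold change also ran with exon length, at r = 0.40 and rho = 0.40 over the members and r = 0.12 and rho = 0.20 over all genes. The correction removes both trends at once, so their parts in its effect cannot be told apart.

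The more GC-rich members averaged -0.020, 0.11, -0.069 and -0.22 log2 units in TSP1 replicates 1 to 4, against -0.071, 0.15 and 0.12 in PBS replicates 1 to 3. The others averaged 0.040, 0.073, 0.012 and -0.092 with TSP1, against -0.10, 0.040 and 0.031 with PBS. TSP1 replicate 4 was low in both, and more so in the GC-rich members. After the length and GC correction r over the members was -0.25 and rho was -0.25, and the medians were -0.072 for the GC-rich members and -0.014 for the others. After that correction 6 members had an unadjusted p under 0.05 (Dlg2, Dlg4, Cacng2, Git1, Ppp1r9b and Lrfn2), all below 0, which is 15.4%, against 8.55% of all genes in that fit, and 12 of 39 were above 0.

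**Figure D5:**
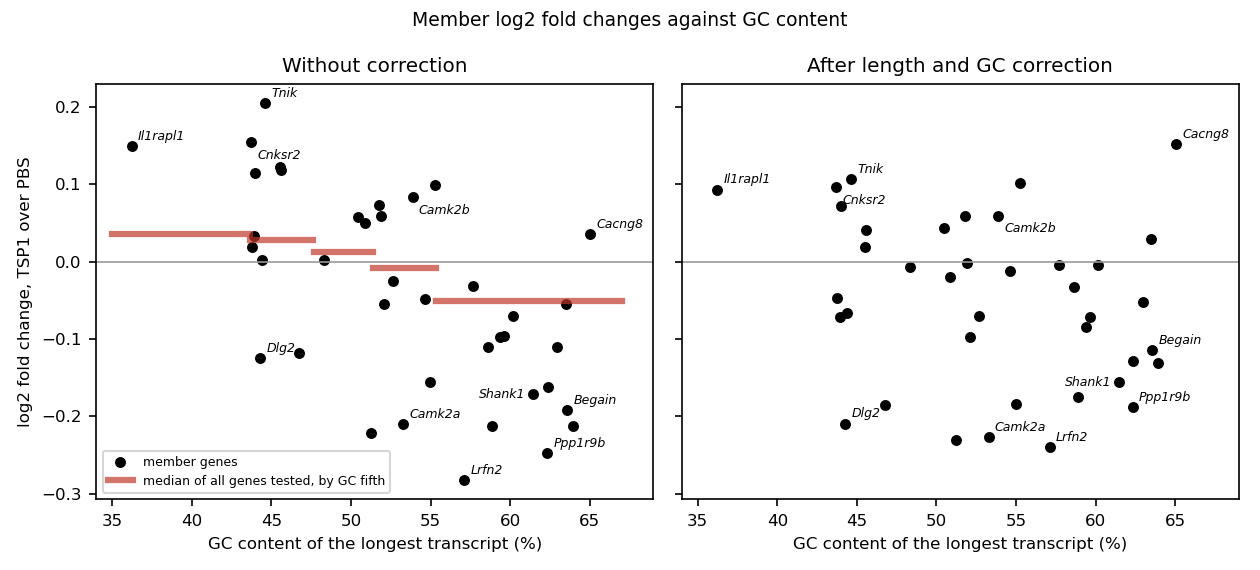
Log2 fold change, TSP1 over PBS (y axes), against GC content of the longest transcript (x axes) for the 39 members, before (left) and after (right) the length and GC correction. Red lines are the medians of all genes tested in 5 equal bins of GC content, from 0.035 to -0.050, and r over the members is -0.62 before and -0.25 after.

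Promoter windows were searched for the GC box, the motif bound by Sp1-family factors, since the members are rich in GC. RefSeq windows (GRCm38.p6) were matched by symbol for 30 of 39 members, 1 each, and the 250 bases before the start had a median of 66.6% GC and 14 CpG sites, against 52.4% and 6 over 32851 windows. The GC box letters GGGCGG, on either strand and counting overlaps, were in 19 of 30 member windows (63.3%), against 32.7% of all windows. The 32851 windows cover 27025 genes, some with more than 1 window and not only genes tested, so they are not a matched background. The cAMP response element TGACGTCA was in 0 of 30 and in 1.5% of all windows. Shown are the windows of Camk2b (chr11:6065749-6065998, minus strand) and Git1 (chr11:77493162-77493411, plus strand). Camk2b was higher in every TSP1 library (edgeR unadjusted p = 0.198), and Git1 was lower at an unadjusted p under 0.05. Neither window holds exon bases of its gene in GENCODE M21. The Camk2b window lies inside the span of its gene there (5969644 to 6066362), while the Git1 window lies before its gene. GC boxes on either strand are in capitals.
Camk2b: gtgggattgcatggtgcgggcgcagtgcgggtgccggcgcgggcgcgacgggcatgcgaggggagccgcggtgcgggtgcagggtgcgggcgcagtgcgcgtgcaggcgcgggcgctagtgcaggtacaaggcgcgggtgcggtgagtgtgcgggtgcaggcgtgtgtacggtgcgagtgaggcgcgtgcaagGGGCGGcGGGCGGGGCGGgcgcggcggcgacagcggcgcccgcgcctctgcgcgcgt
Git1: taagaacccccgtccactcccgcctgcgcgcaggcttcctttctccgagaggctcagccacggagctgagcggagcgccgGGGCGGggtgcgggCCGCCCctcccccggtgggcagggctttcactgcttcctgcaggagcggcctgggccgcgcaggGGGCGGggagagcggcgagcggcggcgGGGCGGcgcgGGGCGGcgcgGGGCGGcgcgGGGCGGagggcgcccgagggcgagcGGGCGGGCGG
The Camk2b window held 3 GC boxes at 78.4% GC and the Git1 window 9 at 81.2% GC. The windows of Cacng2 and Ppp1r9b, also lower at an unadjusted p under 0.05, held no GC box, and Tnik and Lrfn2 had no matched window. Whether the GC box goes with the direction of the fold change was not tested.

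Among other genes of the postsynaptic density the share was also near the background. Of 68 further scaffold and signalling genes, all tested, 33 had log2 fold changes above 0 and 35 below (median -0.0031), and 7 (10.3%) had an unadjusted p under 0.05, against 9.65% of all genes. The 6 of smallest p were Rapgef4, Camk2n1, Nsmf, Lrrc7, Rasgrf1 and Psd. Rapgef4, a cAMP-activated exchange factor for Rap, had 645, 639, 638 and 645 CPM with TSP1, against 755, 817 and 768 CPM with PBS. All TSP1 libraries lay below all PBS libraries, with a log2 fold change of -0.28 (SE 0.062, edgeR adjusted p = 0.170). Camk2n1, an inhibitor of CaMKII, had a log2 fold change of -0.32 (SE 0.11, edgeR adjusted p = 0.379), and TSP1 replicates 2 and 3 overlapped PBS. The values of Nsmf, Psd, Lrrc7 and Rasgrf1 were -0.21 (SE 0.085), -0.22 (SE 0.098), 0.25 (SE 0.11) and 0.15 (SE 0.066).

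Of the 11 genes of AMPA, NMDA and group I metabotropic receptors that these scaffolds anchor, 9 had log2 fold changes above 0 (median 0.14). Grm5, Gria2 and Grin2b had an unadjusted p under 0.05 and groups that did not overlap, all higher with TSP1. Over all genes 4.21% were higher at that p, and 4.83% were higher without overlap. The Grin2b groups were all but touching, with a lowest TSP1 value of 622.9 CPM and a highest PBS value of 622.8 CPM. Grm5, the metabotropic receptor gene that Homer proteins tie to Shank, had 208, 196, 207 and 196 CPM with TSP1, against 180, 169 and 183 CPM with PBS. The log2 fold changes of Grm5, Gria2 and Grin2b were 0.19 (SE 0.060), 0.18 (SE 0.067) and 0.22 (SE 0.086), and none passed over all genes (smallest edgeR adjusted p = 0.342). For the scaffolds and the receptors together the count at an unadjusted p under 0.05 was 10 of 79, where 9.65% of all genes passed. It was 3 without PBS replicate 2, where 7.98% of all genes passed, and 6 without PBS replicate 3, where 6.71% passed. In the fit corrected for exon length and GC content, 9 of the 79 had such a p, where 8.55% of all genes passed. All 9 were lower with TSP1. None of Grm5, Gria2, Grin2b, Lrrc7 and Rasgrf1 was therefore higher at that p in the corrected fit.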

How the data were processed

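Raw read counts per gene were deposited as 1 table for 7 libraries, and were judged to be counts from their values, whole numbers with different totals. Per the labels' protocols each library was made with a SMARTer mRNA kit from 1.3 µg of column-purified total RNA. Per the submitters' processing notes the builds are GRCm38 and mm10. Aligner, counter and strand setting were not given in the sources used here. Reads of exon bases shared between genes therefore cannot be told apart, and 12 of 39 members share exon bases with another annotated gene (10 of them on the opposite strand). Columns were matched by the number that opens each sample's description (0 columns of other samples). Identifiers were matched to GENCODE M21 (25375 of 25467). No row lacked a gene identifier. Replicates differed by more than sampling noise (chi-square of 4.21 to 14.6 per degree of freedom).

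Counts were tested with edgeR 4.0.16 in R 4.3.3 (filterByExpr, TMM, robust quasi-likelihood fit of group over all 7 libraries, two-sided, Benjamini-Hochberg over 17211 genes, FDR under 0.05). The SE is the absolute log2 fold change divided by the root of the F statistic, with a median of 0.0863 for the members. Library levels are log2 CPM with a prior count of 2. Shares within 6 families were compared by exact permutation. Alternatives used limma 3.58.1, DESeq2 1.42.0, edgeR's exact test, other filters and scaling, the replicate number as a block, a length and GC correction (natural splines, 4 degrees of freedom each) and leaving out each library. The scripts were tested on simulated counts. P-values measure group differences relative to variation among these mice. The labelled library numbers, 1 to 4 for TSP1 and 8, 11 and 12 for PBS, do not interleave, so any order effect cannot be told apart from treatment. The members and lists were chosen with earlier results of these data known. All members are named. Values in every library are given for those with an unadjusted p under 0.05 or no overlap and for 8 core genes, and up to 6 further genes per list were named by smallest p. Values by library or range of Dlg2, Dlgap3, Shank1, Kalrn and Begain, and of Grm5 and Grin2b, were added after they were seen.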

Additional observations from a re-analysis of the deposited data

Results flagged for a closer look

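Of 45 sets of TSP1 values examined for a library standing apart (39 members and 6 family shares, groups of 4), 1 passed the 95% critical value of Dixon's test, which chance alone passes in about 5%. Dlgap1 had 609, 604, 602 and 546 CPM in TSP1 replicates 1 to 4, and the gap between TSP1 replicate 4 and its nearest neighbour took up 0.895 of the range of the group. TSP1 replicate 4 was the library that stood apart, the same one that had the highest striatal and oligodendrocyte markers. The PBS group of 3 libraries is too small for this test.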

How the results depend on the processing

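No member passed an FDR of 0.05 in any of the alternatives run, including DESeq2, edgeR's exact test, limma-voom and each fit without 1 library, and 25 of 39 members kept the sign of their log2 fold change in all of them. Over all genes 0 passed the quasi-likelihood test, 88 passed DESeq2 (21 higher and 67 lower with TSP1), 104 the exact test (24 higher and 80 lower) and 19 the fit with no low-count filter (7 higher and 12 lower). Leaving out 1 library gave 0 to 9 genes (9 without PBS replicate 3). Members at an unadjusted p under 0.05 numbered 1 to 9 without 1 library, and the further postsynaptic and receptor genes 3 to 10. The sign of the difference in share turned for Shank3 (-0.19 to 1.09 percentage points without 1 library) and Homer3 (-2.59 to 0.74). The log2 fold changes of 14 members turned sign in at least 1 alternative. In the main fit those 14 lay between -0.11 (Nrgn) and 0.099 (Dlgap2). Those that turned under the length and GC correction were Dlg1 -0.047, Dlgap1 -0.020, Homer2 -0.067, Camk2d -0.072, Rac1 -0.0071, Arhgef7 -0.0024 and Lrfn1 0.029, and with limma-voom Homer2 -0.0040. Without 1 library the log2 fold changes that turned sign ran over these ranges: Dlg1 -0.021 to 0.049, Dlgap2 -0.0042 to 0.17, Homer2 -0.071 to 0.11, Homer3 -0.15 to 0.090, Camk2d -0.053 to 0.17, Camk2g -0.0069 to 0.16, Nrgn -0.26 to 0.047, Cacng3 -0.13 to 0.039, Rac1 -0.018 to 0.027, Sipa1l1 -0.11 to 0.043, Baiap2 -0.065 to 0.0092 and Lrfn1 -0.11 to 0.0084. The causes were not tested.

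The replicate numbers gave no sign of pairing the mice: deviations of same-numbered libraries from their group means correlated across genes at -0.26, -0.033 and 0.010. With the replicate number as a block, 4 members had an unadjusted p under 0.05 (10.3%, against 7.94% of all genes). Cacng2 and Git1 were no longer among them in that fit, and Cnksr2 was. The median over the 39 members was -0.0011. PBS has no replicate 4, so TSP1 replicate 4 is alone in its block and adds nothing to the group estimate. The block fit thus lies close to the fit without TSP1 replicate 4, which had the same 4 members and a median of -0.0022. In the block fit Cacng3 was at 0.037, Rac1 at -0.022, Sipa1l1 at 0.018 and Lrfn1 at 0.0033. No library correlated best with the library of its own number in the other group. At this depth the median SE over all genes was 0.112 log2 units.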
